A study of Homo sapiens with 12 samples.

Results

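The genes described are 10 members of the BCL2 family, 10 of the 18417 genes measured. They were taken as a list of named family members: BCL2, BCL2L1, MCL1 and BCL2A1, which protect cells from death, and BAK1, BCL2L11, BID, BIK, BMF and HRK, which promote it. Each gene had 1 probe set. RNA was profiled on whole-transcript microarrays in EA.hy 926, an established human line that arose from a fusion of endothelial cells of the umbilical vein and A549 lung carcinoma cells. Hi cells were kept in Medium 199 with 9 uM folic acid, the usual level for the line, and Lo cells had been adapted to the same medium with 23 nM. All cells received 10% foetal calf serum, grew to confluence and had their medium changed 24 h before treatment. Control cells (Hi_Control, Lo_Control) were compared with cells given 0.5 uM pemetrexed (PMX), an antifolate drug, for 48 h (Hi_PMX, Lo_PMX), with 3 biological replicates in each of the 4 groups. The control groups are listed with 0 uM PMX and 0 h of treatment. If they were collected at the start, time in culture cannot be told apart from PMX. All replicates come from this single line, and whether the Lo replicates came from separate adaptations is not given in the sources used here.

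The BCL2 family decides whether the outer mitochondrial membrane is opened during apoptosis. BAK1 (BAK) and its relative BAX form the pore that releases cytochrome c. BCL2, BCL-xL (the product of BCL2L1), MCL1 and A1 (the product of BCL2A1) hold the pore formers back, and the BH3-only proteins bind the protectors or the pore formers directly. Among the BH3-only proteins, BIM (the product of BCL2L11) and BID are potent activators of death, while BMF, BIK and HRK act mainly as sensitizers. In endothelial cells A1 is an NF-kB target that is induced by inflammatory signals, and MCL1 is a short-lived protein whose amount follows its synthesis closely.

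Values are log2 signals, so a difference of 1 is a 2-fold change. Differences are given ± standard error from limma, fitted to all 12 arrays with one mean per group, and a gene is called where its p, adjusted by Benjamini-Hochberg over all 18417 genes, is under 0.05. The median of an array lay between 7.24 and 7.33. In 2 control arrays neither the family nor the whole profile looked like the group on the label. The third Hi_Control array differed from the other Hi_Control arrays by 0.36 on average over the 10 members, but by 0.12 from the mean of Lo_Control. The third Lo_Control array differed from the other Lo_Control arrays by 0.32, but by 0.14 from Hi_Control and 0.091 from Hi_PMX. Over all genes, the third Hi_Control array correlated at r = 0.997 with Lo_Control and 0.990 with Hi_Control, and the third Lo_Control array at 0.997 with Hi_Control and 0.992 with Lo_Control (Pearson r across genes, which are not independent). Whether the 2 labels were exchanged was not tested, and an exchange would alter every value that uses a control group. Labels were kept as deposited, and results that rest on these 2 discordant arrays are given with all 12 arrays and with the 10 that remain without them. Since the arrays were set aside for signals that include those of the members, a call gained with 10 arrays depends on that choice and is not independent evidence. Cell identity markers were checked as lists. All 12 endothelial markers lay above the array median in the Hi groups and Lo_Control, and 11 did in Lo_PMX. Of 7 leukocyte markers 3 lay above it in every group. PTPRC, the pan-leukocyte CD45 gene, stayed between 4.05 and 4.21, and CD68 between 11.77 and 12.26. Of 5 fibroblast and smooth muscle markers 2 lay above it. DCN (decorin) stayed between 3.85 and 4.15, and ACTA2 between 11.07 and 12.07. Of 8 epithelial and lung carcinoma markers 5 or 6 lay above it. EPCAM (between 5.30 and 6.08) and CDH1 (between 5.45 and 5.89) stayed below it. KRT7 (11.82 to 12.45), KRT8 (11.55 to 12.07) and KRT18 (11.50 to 11.93) stayed above it.

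**Figure D1:**
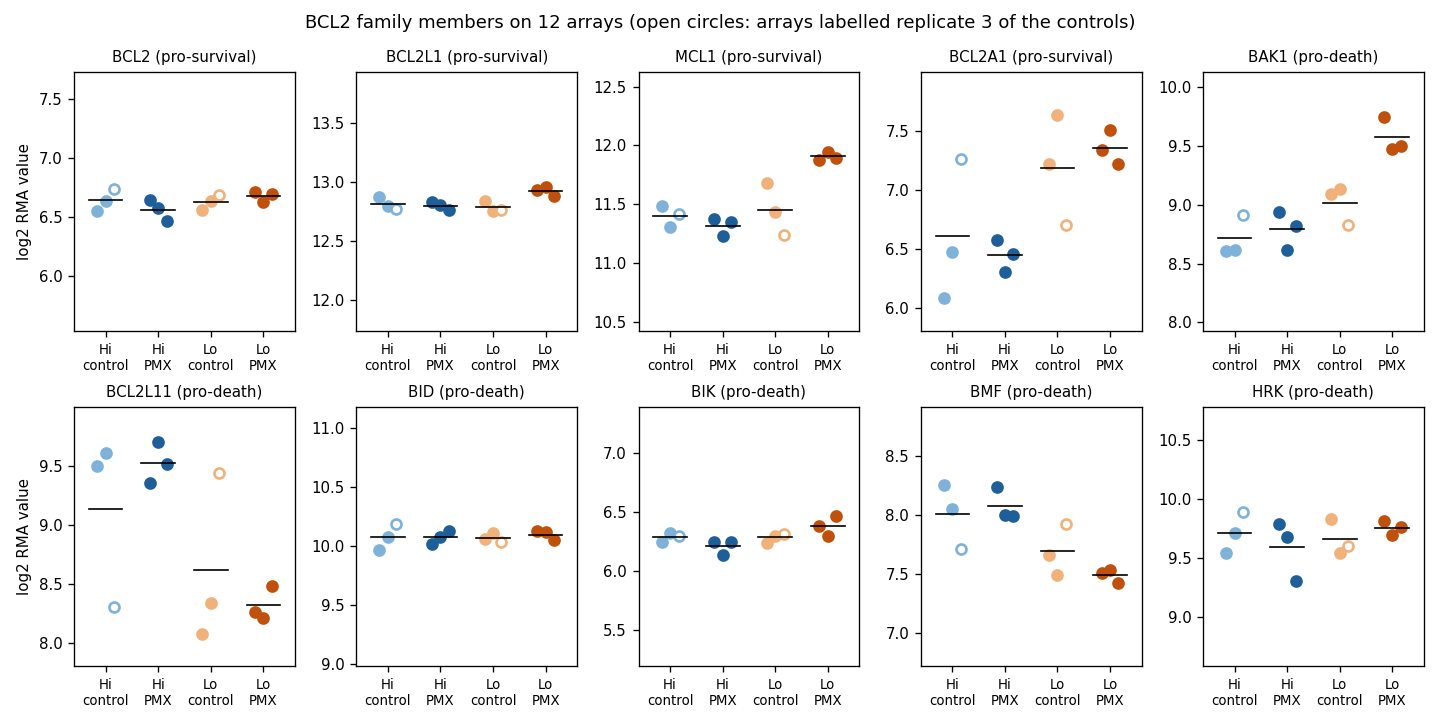
Log2 signal (vertical axes, one panel per gene) of the 10 BCL2 family members on each of the 12 arrays, by group, with group means as bars. BCL2L11 sits near 9.5 on most Hi arrays and near 8.3 on most Lo arrays, with the third Hi_Control array (8.30) and the third Lo_Control array (9.44) each at the level of the other folate condition.

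Lo cells carried less RNA for 2 BH3-only genes, BCL2L11 and BMF, and more for BCL2A1 and BAK1. In PMX-treated cells MCL1 was also higher in Lo. These 5 members (3 higher, 2 lower) were called between Lo_PMX and Hi_PMX, where 22.3% of all genes were called, 11.3% higher and 11% lower. Between the control groups the first 4 were called without the 2 discordant arrays and none was called with them. BCL2, BCL2L1, BID, BIK and HRK were not called in any of the 5 comparisons in the fits to 12 or to 10 arrays. Under repeated quantile normalization of the 12 arrays BCL2L1 was called between treated Lo and Hi cells (0.18, adjusted p = 0.0447).

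Reference sequence upstream of 4 of the 5 genes called between treated Lo and Hi cells is shown here, because these genes differed in opposite directions under one condition. RefSeq (GRCh38.p14) had an entry for 8 of the 10 members, with 14 start sites, and MCL1 and BIK were not matched. Each run is the 250 bases before the transcription start, read 5′ to 3′ on the gene's strand. Capitals mark matches to a searched motif. The BCL2L11 run is chr2:111120664-111120913 on the plus strand. On the minus strand, the BMF run from the outer of its 2 listed starts is chr15:40108880-40109129, the BCL2A1 run is chr15:79971197-79971446 and the BAK1 run is chr6:33580277-33580526.
BCL2L11: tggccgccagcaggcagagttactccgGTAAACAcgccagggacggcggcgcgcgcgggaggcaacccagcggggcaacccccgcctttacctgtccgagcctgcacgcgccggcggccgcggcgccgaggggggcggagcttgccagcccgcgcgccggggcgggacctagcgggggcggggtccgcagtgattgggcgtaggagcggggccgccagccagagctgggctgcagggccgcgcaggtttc
BMF: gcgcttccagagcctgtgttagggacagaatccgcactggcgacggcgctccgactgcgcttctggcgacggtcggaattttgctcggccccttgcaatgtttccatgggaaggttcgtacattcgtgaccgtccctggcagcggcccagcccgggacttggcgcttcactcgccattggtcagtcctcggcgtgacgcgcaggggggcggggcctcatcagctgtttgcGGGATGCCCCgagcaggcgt
BCL2A1: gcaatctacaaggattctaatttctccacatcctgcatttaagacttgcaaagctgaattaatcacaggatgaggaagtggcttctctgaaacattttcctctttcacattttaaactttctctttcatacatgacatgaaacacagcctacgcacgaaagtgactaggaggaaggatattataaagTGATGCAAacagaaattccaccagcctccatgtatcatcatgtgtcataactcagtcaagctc
BAK1: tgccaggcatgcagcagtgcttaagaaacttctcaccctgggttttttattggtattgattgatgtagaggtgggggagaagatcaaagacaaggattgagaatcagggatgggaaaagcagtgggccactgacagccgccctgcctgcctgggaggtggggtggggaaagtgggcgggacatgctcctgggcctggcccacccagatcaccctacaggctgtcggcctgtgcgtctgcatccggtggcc
The runs differ widely in base composition. BCL2L11 had 76.8% G and C and BCL2A1 38.8%, against a median of 58% over 35116 RefSeq start sites. Both strands were searched for 7 motifs, and no match overlapped another. BCL2L11 held one forkhead match, GTAAACA, from 223 to 217 bases before the start, a motif found in 2.98% of all such runs. BCL2A1 held TGATGCAA from 63 to 56 bases before the start, a match to the ATF4 and CEBP composite TGATGNAA found in 3.14% of runs. BMF held an NF-kB consensus match from 20 to 11 bases before its outer start, a motif found in 9.96% of runs, and the run before its inner start, not printed, held no match to the 7 motifs. The BAK1 run held no match to these motifs or to E2F (TTTNNCGC, 5.92% of runs), AP-1 (TGANTCA, 6.57%), CRE (TGACGTCA, 1.65%) or the E-box (CACGTG, 6.34%). A match is a description of letters, and binding was not measured.

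BCL2L11 had the widest spread of the family. The Hi_PMX arrays read 9.35, 9.71 and 9.52, and the Lo_PMX arrays 8.26, 8.21 and 8.48. Every treated Lo array was thus below every treated Hi array. The difference was -1.21 ± 0.35, a 2.31-fold lower signal in Lo (adjusted p = 0.0248). In control cells the Hi arrays read 9.50, 9.61 and 8.30, and the Lo arrays 8.08, 8.34 and 9.44. Here the groups overlapped through the third array of each. With all 12 arrays the control difference was -0.52 ± 0.35 (adjusted p = 1.00). Without these 2 arrays it was -1.35 ± 0.13, a 2.55-fold lower signal (adjusted p = 7.84e-05), beside -1.21 in treated cells, a call that depends on setting aside arrays with discordant BCL2L11 signals. The treated difference had an adjusted p of 4.97e-06 in that 10-array fit, with the same fold, because the treated groups keep all their arrays. In the 12-array fit the call was lost when any one of Hi_PMX replicates 2 or 3 or Lo_PMX replicates 1, 2 or 3 was left out. The differences lay between -1.295 and -1.12, with an adjusted p of up to 0.0837 over the 12 such fits. The standard error in these fits pools the spread of all 4 groups, controls included. The SD of BCL2L11 was 0.73 in each control group, 0.18 in Hi_PMX and 0.15 in Lo_PMX. Without the 2 discordant arrays the standard error of the treated difference was 0.11.

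BMF, whose protein is held at the actin and myosin cytoskeleton until released, followed the same direction. Its Hi_PMX arrays read 8.24, 8.0 and 8.0, and its Lo_PMX arrays 7.51, 7.53 and 7.43, with no overlap. The signal was 1.503-fold lower in treated Lo cells (-0.59 ± 0.14, adjusted p = 0.00860). In controls the Hi arrays read 8.26, 8.05 and 7.71 and the Lo arrays 7.66, 7.49 and 7.93, so the groups overlapped through the third arrays again. The control difference was -0.31 ± 0.14 with 12 arrays (adjusted p = 1.00) and -0.58 ± 0.11 with 10 (1.49-fold lower, adjusted p = 0.00661). The call in treated cells remained in each of the 12 fits that left out one array.

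BCL2A1 was the pro-survival member with the largest difference between the folate levels. Its Hi_PMX arrays read 6.58, 6.30 and 6.46, all below the array medians, and its Lo_PMX arrays 7.34, 7.51 and 7.22. The groups did not overlap, and the signal was 1.87-fold higher in Lo (0.91 ± 0.26, adjusted p = 0.0259). In controls the Hi arrays read 6.08, 6.47 and 7.26 and the Lo arrays 7.22, 7.64 and 6.70. The third arrays stood at the other group's level here too. The control difference was 0.58 ± 0.26 with 12 arrays (adjusted p = 1.00) and 1.15 ± 0.16 with 10, a 2.22-fold higher signal (adjusted p = 0.000967). As for BCL2L11, the 12-array call in treated cells was lost without any one of Hi_PMX replicates 2 or 3 or Lo_PMX replicates 1, 2 or 3. The differences ran from 0.83 to 0.98, with adjusted p up to 0.0869. The pooled standard error again includes the controls. The SD of BCL2A1 was 0.60 in Hi_Control and 0.47 in Lo_Control, against 0.14 in Hi_PMX and 0.15 in Lo_PMX. Without the 2 discordant arrays the difference between treated Lo and Hi cells was 0.91 ± 0.13 (adjusted p = 0.000226). Summed signals of marker lists shifted in the same comparison. Their part in the 5 differences between treated Lo and Hi cells was not tested. The summed linear signal of the endothelial markers ran from 18271 to 20778 in Lo_PMX and from 34827 to 39033 in Hi_PMX. That of the fibroblast and smooth muscle markers ran from 4351 to 4900 against 2758 to 3152, and that of the epithelial and lung carcinoma markers from 12018 to 13168 against 10500.2 to 11249.5. The leukocyte sum ran from 5192 to 5849 against 4645 to 5059, while PTPRC stayed between 4.05 and 4.21 on all arrays. Each sum is weighted to its brightest genes. ACTA2 lay between 11.07 and 12.07 on all arrays, while COL1A1, COL3A1, PDGFRB and DCN lay between 3.85 and 8.41. CD68 lay between 11.77 and 12.26, above every other leukocyte marker.

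BAK1, the pore-forming effector, was higher in Lo than in Hi cells when both were treated, and it rose with PMX in Lo cells. Its arrays read 8.61, 8.62 and 8.92 in Hi_Control and 8.94, 8.61 and 8.82 in Hi_PMX. They read 9.09, 9.13 and 8.83 in Lo_Control and 9.74, 9.47 and 9.50 in Lo_PMX. All Lo_PMX arrays lay above all others. The treated Lo cells exceeded the treated Hi cells 1.72-fold (0.78 ± 0.12, adjusted p = 0.000829), and this call remained in each fit that left out one array. Between the controls the difference was 0.30 ± 0.12 with 12 arrays (adjusted p = 1.00) and 0.50 ± 0.12 with 10 (1.42-fold, adjusted p = 0.0211). RefSeq lists BAK1 pseudogenes (BAK1P1, BAK1P2), and a contribution of related sequence to this probe set was not tested.

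MCL1 differed between folate levels in treated cells. Its Hi_PMX arrays read 11.37, 11.23 and 11.35, and its Lo_PMX arrays 11.88, 11.95 and 11.90. The Lo_PMX arrays lay close together and above every other array of the study. The difference was 0.59 ± 0.10, a 1.504-fold higher signal in Lo (adjusted p = 0.00133). The controls read 11.49, 11.31 and 11.42 in Hi and 11.68, 11.44 and 11.24 in Lo. They overlapped, with a difference of 0.050 ± 0.099 (95% interval -0.16 to 0.26) over 12 arrays and 0.16 ± 0.10 over 10, neither called.

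**Figure D2:**
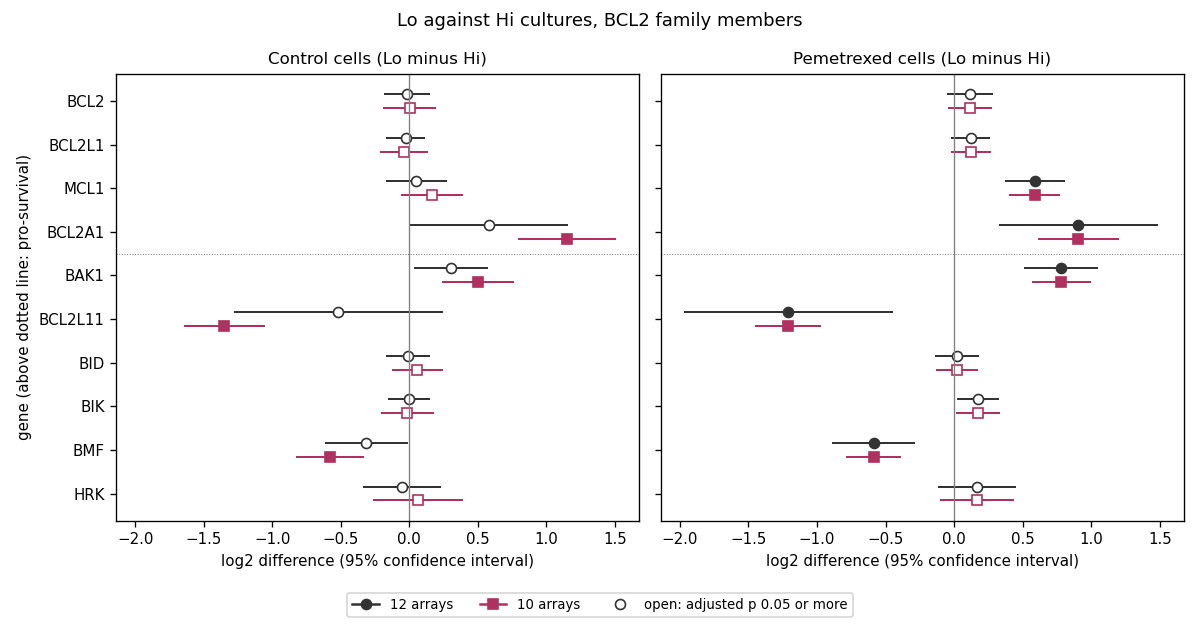
Difference in log2 signal, Lo minus Hi (horizontal axis, with 95% confidence intervals), for the 10 members in control cells (left) and PMX-treated cells (right), from 12 arrays and from 10 arrays without the third Hi_Control and Lo_Control arrays. Filled symbols passed the adjusted p threshold: none of the 12-array points in controls and 5 in treated cells.

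Counts over all genes set the scale for these calls. In controls the 12-array fit called 0 of 18417 genes (0%), with 387 at an unadjusted p under 0.05. Letting the variance follow the signal level in limma also called 0. With 10 arrays, 4 of 10 members were called (2 higher, 2 lower) where 7.17% of genes were, 3.67% higher and 3.5% lower. In treated cells 5 of 10 members were called where 22.3% were, and with 10 arrays the same 5 where 27.7% were, 13.7% higher and 14% lower. The groups did not overlap for 7 of 10 members in treated cells, against 37.3% of all genes. For the 10-array controls they did not overlap for 4 of 10 members, against 48% of all genes, since 2 arrays a group separate easily.

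PMX was followed by higher MCL1 and BAK1 RNA in Lo cells. They were 2 of 10 members called, both up, one from each side of the family, where 10.7% of all genes were called and 5.6% were called higher. MCL1 rose 1.37-fold (0.45 ± 0.10, adjusted p = 0.0107), from a Lo_Control mean of 11.45 ± 0.22 to 11.91 ± 0.035 in Lo_PMX (SD, n = 3). BAK1 rose 1.47-fold (0.55 ± 0.12, adjusted p = 0.0110), from 9.02 ± 0.17 to 9.57 ± 0.15 (SD, n = 3). Without the 2 discordant arrays, the rises were 0.35 ± 0.092 for MCL1 (1.27-fold, adjusted p = 0.0291) and 0.46 ± 0.11 for BAK1 (adjusted p = 0.0153), with 11% of genes called. MCL1 kept its call in each of the 12 fits that left out one array, and BAK1 lost it only without Lo_PMX replicate 1 (0.47, adjusted p = 0.0531). BCL2L1 also had Lo_PMX arrays (12.93, 12.96 and 12.88) above all Lo_Control arrays (12.84, 12.75 and 12.76), but its difference of 0.14 ± 0.062 was not called (adjusted p = 0.210). Groups that did not overlap were found for 3 of 10 members and 29.8% of all genes. The summed linear signal of the endothelial markers was lower in Lo_PMX (18271 to 20778) than in Lo_Control (25591 to 35968), and that of the fibroblast and smooth muscle markers was higher (4351 to 4900 against 2844 to 3900). ACTA2 was the brightest gene of the latter list (11.07 to 12.07 on all arrays), so that sum is weighted to it. The part of these shifts in the MCL1 and BAK1 results was not tested, and in bulk RNA fewer cells of a kind and less RNA per cell cannot be told apart.

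BCL2L11, BMF and BCL2A1, the other members that differed between folate levels, were not called after PMX in Lo cells. Their differences with 12 arrays were -0.30 ± 0.35, -0.20 ± 0.14 and 0.17 ± 0.26. With 10 arrays they were 0.11 ± 0.12, -0.085 ± 0.10 and -0.076 ± 0.15, so the sign turned for BCL2L11 and BCL2A1.

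In Hi cells no member was called after PMX, and neither was any other gene (0%), with 12 or 10 arrays. At an unadjusted p under 0.05 there were 266 genes with 12 arrays and 335 with 10, and limma with a variance trend called 0 of the 18417 as well. The members' differences ran from -0.16 to 0.39 with 12 arrays and from -0.078 to 0.18 with 10. The difference for MCL1 was -0.085 ± 0.099 (95% interval -0.30 to 0.13) and for BAK1 0.077 ± 0.12 (-0.19 to 0.34).

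A direct test compared the size of the PMX response in the 2 folate conditions. MCL1 was the 1 member called, with a response 0.54 ± 0.14 higher in Lo (95% interval 0.24 to 0.84, adjusted p = 0.0467), where 4.81% of genes were called and 2.57% called higher. This call was near the threshold and was lost in 11 of the 12 fits that left out one array (adjusted p up to 0.114), all but the one without Lo_Control replicate 1. It was also lost without both discordant arrays (0.43 ± 0.13, adjusted p = 0.103), where 0 members and 4.16% of genes were called. With the replicate number as a block on those 10 arrays, where all 13 same-numbered pairs correlated over 0.1, it was called (adjusted p = 0.0296). BAK1 had 0.48 ± 0.17 (95% interval 0.11 to 0.85, adjusted p = 0.139), so a different response was not shown for it.

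**Figure D3:**
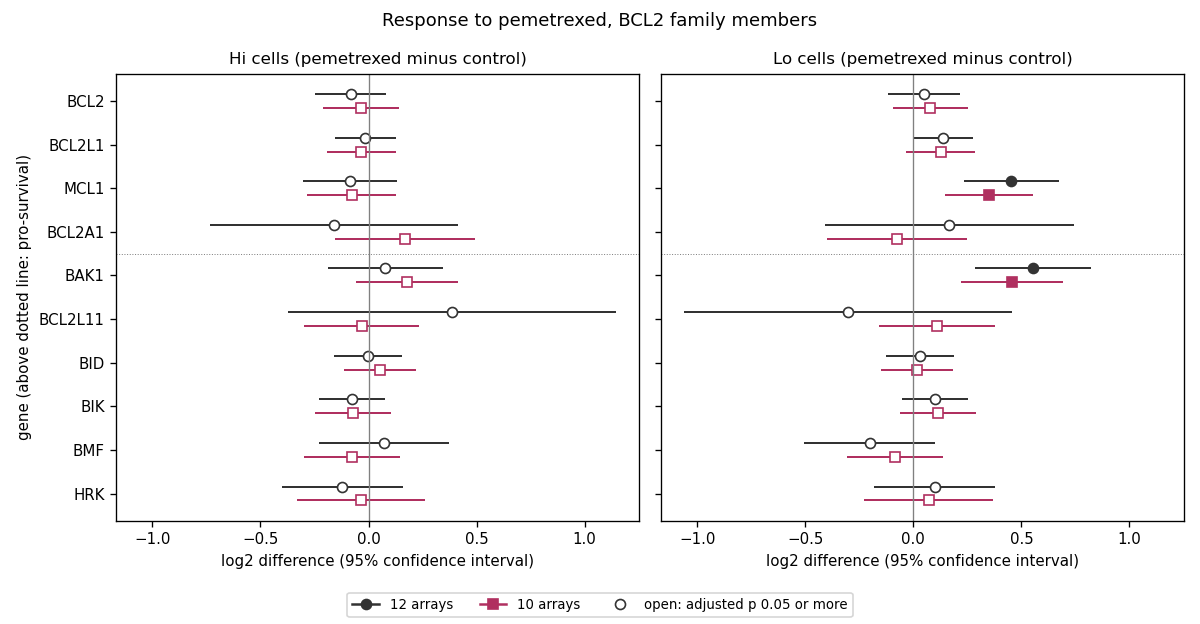
Response to PMX as a difference in log2 signal, treated minus control (horizontal axis, with 95% confidence intervals), for the 10 members in Hi cells (left) and Lo cells (right), from 12 and from 10 arrays. MCL1 and BAK1 in Lo cells are the filled symbols that passed the adjusted p threshold in both fits, and no symbol is filled in Hi cells.

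Called members came from both sides of the family. Between treated Lo and Hi cells, 2 of 4 pro-survival members (MCL1, BCL2A1) were higher and 0 lower, with a median difference of 0.36. Of the 6 pro-death members 1 was higher (BAK1) and 2 were lower (BCL2L11, BMF), with a median of 0.095. Over all genes 22.3% were called, 11.3% higher and 11% lower, with a median of 0.0066. After PMX in Lo cells, 1 of 4 pro-survival and 1 of 6 pro-death members rose, against 5.6% of all genes, and the medians were 0.15 and 0.065 against 0.019 for all genes. In Hi cells the medians were -0.084 and 0.034, with no member called. With 10 arrays the control comparison gave 1 of 4 pro-survival members higher (BCL2A1), and 1 higher and 2 lower among the 6 pro-death members, against 3.67% of genes higher and 3.5% lower.

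The remaining 5 members were not called, and their intervals give the sizes of difference that these arrays leave possible. BCL2L1, with group means between 12.78 and 12.92, differed between treated Lo and Hi cells by 0.12 ± 0.062 (95% interval -0.012 to 0.26, adjusted p = 0.198), although its treated groups did not overlap. BCL2 had group means between 6.56 and 6.68 and lay below the array median throughout. Its differences were -0.083 ± 0.074 after PMX in Hi and 0.049 ± 0.074 in Lo, and 0.12 ± 0.074 between treated Lo and Hi cells (95% interval -0.044 to 0.28). BID, the member that caspase-8 cleaves to link death receptors to mitochondria, had group means between 10.06 and 10.10. Its differences in the 4 group comparisons lay between -0.010 and 0.031, and their 95% intervals between -0.16 and 0.19. BIK, a BH3-only protein of the endoplasmic reticulum, also lay below the array median on every array. Its treated groups did not overlap (6.25, 6.14 and 6.24 in Hi, 6.38, 6.30 and 6.47 in Lo), with a difference of 0.17 ± 0.068 that was not called (adjusted p = 0.0902). HRK had group means between 9.59 and 9.76. Its difference was -0.12 ± 0.13 after PMX in Hi cells (95% interval -0.40 to 0.15) and 0.10 ± 0.13 in Lo cells (-0.18 to 0.37).

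Genes that work with the family were followed as 6 lists of 62 genes, of which 56 are described and the others were not analysed here. After PMX in Lo cells 11 of the 56 rose and 3 fell, where 10.7% of all genes were called and 5.6% rose (10 and 2 with 10 arrays, where 11% were called). Among the 12 other family members and relatives, 1 rose: PMAIP1, which encodes the MCL1-binding BH3-only protein NOXA, by 0.89 ± 0.19 (adjusted p = 0.0104, lost without Lo_PMX replicate 3). BAX (0.16 ± 0.077) and BBC3 (PUMA, 0.28 ± 0.097) were not called. Among 13 caspases and mitochondrial factors, CASP10, an initiator caspase of death receptor complexes, rose by 0.75 ± 0.13. Of 8 death receptors and adaptors 3 rose and 0 fell: FAS by 0.85 ± 0.16, TNFRSF10A by 0.78 ± 0.11 and TNFRSF10B by 0.37 ± 0.075. Of 7 inhibitors of apoptosis, XIAP rose by 0.36 ± 0.10, a call lost in 8 of 12 fits that left out one array. BIRC5 (survivin), which is also a mitotic gene, fell by 0.997 on the log2 scale ± 0.080. Of 7 partners and turnover genes 2 rose, MARCHF5, a ubiquitin ligase of the outer mitochondrial membrane, by 0.33 ± 0.080 and DYNLL2, the dynein light chain that holds BMF, by 0.33 ± 0.078. Their calls were lost in 3 and 5 of the 12 fits that left out one array. DYNLL1, the light chain that holds BIM, fell by 0.37 on the log2 scale ± 0.099 with 12 arrays, lost its call in 4 of those 12 fits and was not called with 10 arrays. In Hi cells 0 of the 56 were called. In the test of the difference between Lo and Hi responses 4 of the 56 were higher in Lo (CASP10, FAS, TNFRSF10A, DDIT3) and 2 lower (BIRC5, E2F1), where 4.81% of all genes were called. Of the 12 fits that left out one array, the call was lost in 8 for CASP10, 6 for FAS and 3 for TNFRSF10A, and in 0 for DDIT3, BIRC5 and E2F1. With 10 arrays the same test gave 6 of the 56 higher in Lo and 2 lower, where 4.16% of all genes were called. Those higher included 3 of the 8 death receptors and adaptors. They also included 1 of the 12 other family members and relatives, where 0 were called with 12 arrays. The largest difference among those 12 was 1.05 with 10 arrays.

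Transcription factors known to act on these genes formed the last of the lists. After PMX in Lo cells 3 of the 9 measured rose and 1 fell, where 10.7% of all genes were called and 5.6% rose. DDIT3 (CHOP), a stress factor reported to induce BCL2L11, rose by 2.06 ± 0.24 (adjusted p = 0.000235), while BCL2L11 itself was not called in that comparison. E2F1 fell by 0.82 on the log2 scale ± 0.12. STAT3 rose by 0.30 ± 0.070, a call lost in 3 of 12 fits that left out one array, and RELA by 0.24 ± 0.066, lost in 7 of 12 and not called with 10 arrays. Of the 9 factors, 3 were higher and 2 lower in treated Lo than treated Hi cells. Of all genes 22.3% were called there, 11.3% higher and 11% lower. DDIT3 was higher by 2.45 ± 0.24 and MYC by 0.61 ± 0.15. FOXO1, a forkhead factor known to act on BCL2L11, was lower (-0.45 ± 0.11, adjusted p = 0.00868), and FOXO3 was not called (-0.096 ± 0.086). Between the controls with 10 arrays FOXO1 differed by -0.28 ± 0.090 and was not called (adjusted p = 0.0927). In that fit 2 of the 9 factors were called, both higher in Lo, DDIT3 (0.67) and MYC (0.53), where 3.67% of all genes were higher. With 12 arrays neither was called between the controls (0.16 ± 0.24 and 0.21 ± 0.15). RELA (0.16 ± 0.066) and NFKB1 (-0.10 ± 0.091), the NF-kB subunits known for induction of BCL2A1, were not called between treated Lo and Hi cells. Only RNA of these factors was measured, and whether any of them acted on the members in these cells was not tested.

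Over all lists, 11 of 56 were higher and 8 lower in treated Lo than treated Hi cells, where 22.3% of all genes were called (12 and 10 with 10 arrays, where 27.7% were). FAS was higher by 1.03 ± 0.16, CASP10 by 1.00 ± 0.13 and PMAIP1 by 0.65 ± 0.19, a call lost in 4 of 12 fits that left out one array. TNFSF10 (TRAIL), the ligand of TNFRSF10A and TNFRSF10B, was lower (-0.87 ± 0.24), as was the inhibitor gene NAIP (-0.64 ± 0.19), with calls lost in 2 and 5 of the 12 fits. The TNFSF10 means were dim, 5.43 in Lo_PMX and 6.30 in Hi_PMX, below the array medians. The CASP10 mean in Hi_PMX (6.28) was below them too. In controls with 10 arrays 4 were higher (CASP10, DDIT3, FAS, MYC) and 3 lower (TNFSF10, NAIP, CFLAR), where 7.17% of all genes were called. With 12 arrays 0 of the 56 were called there. In the 10-array fit TNFSF10 differed by -0.84 ± 0.12, NAIP by -0.57 ± 0.12 and CFLAR, the caspase-8 inhibitor FLIP, by -0.46 ± 0.11. CASP10 differed by 0.48 ± 0.098 and FAS by 0.43.

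**Figure D4:**
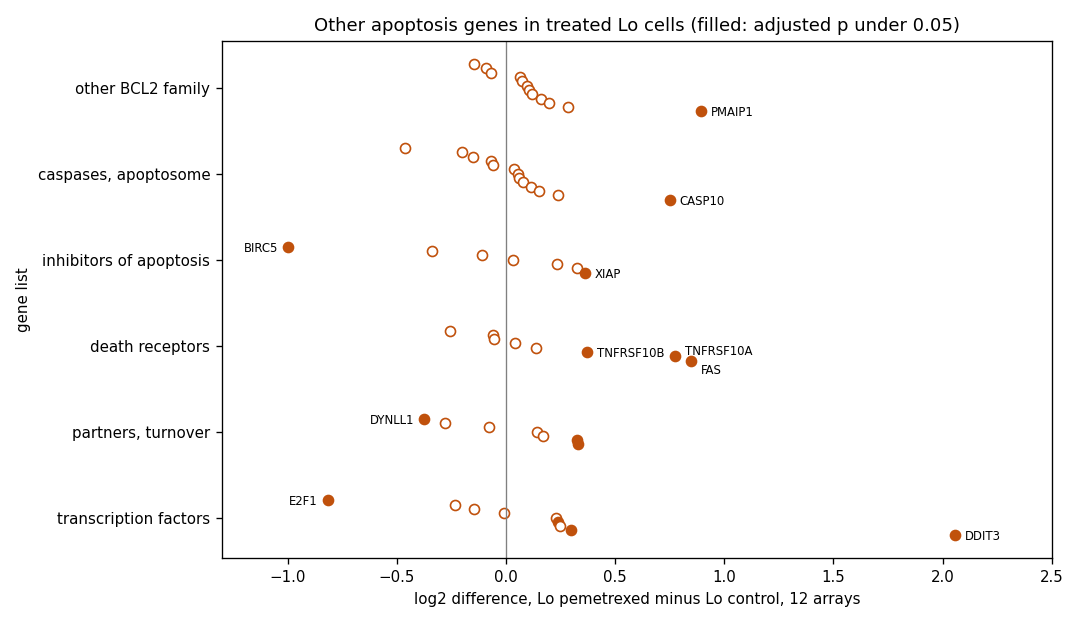
Difference in log2 signal, Lo_PMX minus Lo_Control from all 12 arrays (horizontal axis), for the 56 measured genes of the 6 lists (rows), with genes called at an adjusted p under 0.05 filled. DDIT3 lies farthest to the right at 2.06 and BIRC5 farthest to the left at -0.997.

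The 3 genes whose signal followed MCL1 most closely over the 12 arrays were ARAP1 (Pearson r = 0.99), SARS1 (0.98) and CTH (0.98), and r was 0.99, 0.98 and 0.98 over the 10 arrays. ARAP1 encodes a GTPase-activating protein, SARS1 seryl-tRNA synthetase and CTH cystathionine gamma-lyase. These genes were ranked among all measured genes by r, the arrays are not independent of group, and no test was made. In Lo cells PMX was followed by rises of 0.49 ± 0.11 in ARAP1, 0.47 ± 0.074 in SARS1 and 1.00 ± 0.19 in CTH, beside 0.45 for MCL1.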

How the data were processed

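RNA from 12 EA.hy 926 cultures was labelled with biotin and hybridised to Affymetrix whole-transcript arrays, as the labels' protocols state. The authors deposited log2 signals per probe set, and RMA and Partek 6.5 are named in the submitters' processing notes. RMA corrects background and equalises array distributions, which can compress small differences and hides shifts common to all genes. Of 33297 probe sets, 19460 had 1 gene symbol, 1754 several and 12083 none in the platform annotation; the brightest probe set per symbol by mean over 12 arrays gave 18417 genes. No detection call or filter on dim genes was used unless stated.

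limma 3.58.1 (R 4.3.3) was fitted with one mean per group (8 residual degrees of freedom) for 5 contrasts, with Benjamini-Hochberg adjustment over all genes, and was tested on simulated data. Alternatives left out each array, or the third arrays of both control groups, added the replicate number as a block, repeated quantile normalization, centred arrays on the median, averaged probe sets, dropped genes below the 30th percentile, used a variance trend, tested all probe sets, or fitted only the groups compared.

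Members, gene lists, alternatives and the arrays left out were chosen with earlier results of these data known. Named genes were all 10 members, up to 4 called genes per list and contrast with the smallest p, and the 3 genes most like a member called in the test of differing responses. BAX, BBC3, FOXO1, FOXO3, RELA, NFKB1 and genes that rank below the first 4 were named after their values were seen. Replicate numbers did not pair the 12 arrays: same-numbered arrays of different groups correlated between -0.66 and 0.51 in their deviations from group means, with 11 of 18 pairs over 0.1. The number of arrays limits the precision. Upstream sequences were read from RefSeq.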

Additional observations from a re-analysis of the deposited data

Results flagged for a closer look

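The response of MCL1 to PMX differed between Lo and Hi cells by 0.54 on the log2 scale (0.45 in Lo, -0.085 in Hi), by limma's test of the difference itself (adjusted p = 0.0467). Every Lo_PMX array lay above every Lo_Control array, and the Hi groups overlapped. The Lo groups did not overlap for 29.8% of all genes, in either direction. It was the 1 result among the members that met the criterion for a difference between conditions. The call was lost in 11 of 12 fits that left out one array.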

How the results depend on the processing

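Over the 10 members, 5 comparisons and all alternatives, 989 of the differences kept their direction and side of the threshold, 27 lost a call, 9 gained one and 55 changed sign. Only differences called in the main fit could lose a call. Those were 2 after PMX in Lo cells, 5 between treated cells and 1 in the difference between responses. The 989 therefore include many differences that were called in neither fit. Without replicate 3 of both control groups, the genes called between controls went from 0 to 1320, and BCL2A1 (1.15), BAK1 (0.50), BCL2L11 (-1.35) and BMF (-0.58) gained calls. In that fit the sign turned after PMX in Hi cells for BCL2A1 (0.17), BCL2L11 (-0.031), BID (0.052) and BMF (-0.077), and after PMX in Lo cells for BCL2A1 (-0.076) and BCL2L11 (0.11). It also turned between controls for BCL2 (0.0036), BID (0.058) and HRK (0.062), and in the difference between responses for BCL2A1 (-0.24), BCL2L11 (0.14) and BID (-0.035).

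The replicate block on all 12 arrays called 2248 genes after PMX in Lo cells, 4492 between treated cells, 994 for the difference between responses and 0 in the other comparisons. With the block and without those 2 control arrays, where all 13 same-numbered pairs correlated over 0.1, the counts were 3385, 6554, 1738 and, between controls, 2422; MCL1 was then called in the difference between responses (adjusted p = 0.0296). The sign turned in that fit after PMX in Hi cells for BCL2A1 (0.20), BCL2L11 (-0.070), BID (0.051), BMF (-0.040) and HRK (0.037), after PMX in Lo cells for BCL2A1 (-0.045) and BCL2L11 (0.071). It also turned between controls for BCL2 (0.0036), BID (0.058) and HRK (0.062), and in the difference between responses for BCL2A1 (-0.24), BCL2L11 (0.14) and BID (-0.035). On all 12 arrays the block changed no call of a member. Over 12 arrays 5 matched best with an array of their own number, and over 10 arrays 8 did.

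Median centring turned BCL2L1 (0.0039) and BID (0.017) after PMX in Hi cells and BIK (0.0080) between controls, and ended the MCL1 call for the difference between responses (0.51, adjusted p = 0.0748). Repeated quantile normalization turned BCL2 (0.013) and BIK (0.020) between controls, and BCL2L1 was called between treated cells (0.18, adjusted p = 0.0447). Testing all probe sets gave 563 genes for the difference between responses, and ended the calls of MCL1 there (adjusted p = 0.0917) and of BCL2A1 (adjusted p = 0.0545) and BCL2L11 (adjusted p = 0.0531) between treated cells. The cause of these changes was not tested.

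Leaving out each array in turn gave between 1170 and 2563 genes after PMX in Lo cells, 443 to 956 for the difference between responses, 2855 to 4607 between treated cells and 0 to 0 in Hi cells and between controls. Signs turned in at least 1 such fit after PMX in Hi cells for BCL2A1 (-0.42 to 0.17), BCL2L1 (-0.035 to 0.016), BCL2L11 (-0.031 to 0.62), BID (-0.056 to 0.052), BMF (-0.077 to 0.20) and HRK (-0.22 to 0.023). They turned after PMX in Lo cells for BCL2A1 (-0.076 to 0.39) and BCL2L11 (-0.57 to 0.11). They turned between controls for BCL2 (-0.061 to 0.033), BCL2L1 (-0.053 to 0.0021), BID (-0.065 to 0.043), BIK (-0.023 to 0.022), CFLAR (-0.37 to 0.041), DDIT3 (-0.12 to 0.51), FAS (-0.025 to 0.30), HRK (-0.14 to 0.033) and MCL1 (-0.064 to 0.15). They turned between treated cells for BID (-0.0079 to 0.050). They turned in the difference between responses for BCL2A1 (-0.0018 to 0.59) and BID (-0.021 to 0.088).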
